A study of Arabidopsis thaliana with 13 samples.

Results

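QC-marker cells of the wild-type Arabidopsis root were set against CEI-marker cells of the same genotype, gene by gene. The 6 libraries were chosen by their labels alone, 3 from each population, out of 13 in the series. All came from Col-0 seedlings whose roots were digested to protoplasts 5 days after germination and sorted by fluorescence. The QC reporter was WOX5::GFP (libraries 1, 2 and 3), and the CEI reporter was CYCD6::GUS-GFP (libraries 1, 3 and 4). Because each population came from its own reporter line, population and reporter line cannot be told apart. The other 7 libraries held the same reporters in the wox5-1 mutant, 4 from QC-marker and 3 from CEI-marker cells. Of the 33560 genes listed, 18203 reached at least 1 FPKM (the number of fragments scaled to transcript length and to library depth) in at least 3 of the 6 libraries and were tested.

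The quiescent centre (QC) is a small group of rarely dividing cells at the core of the root tip, and it keeps the stem cells around it undifferentiated. The homeobox transcription factor WOX5 is made there. The cortex/endodermis initials (CEI) are stem cells beside it, whose daughter divides lengthwise to found the cortex and the endodermis, a division that the transcription factors SHORT-ROOT (SHR) and SCARECROW (SCR) trigger through the D-type cyclin CYCD6;1. Auxin collects at the root tip and sustains the PLETHORA (PLT) regulators of the niche.

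The libraries differed in depth and in content. An estimated 6.7, 5.7 and 8.1 M (mega) fragments lay behind the QC-marker libraries, against 18.7, 32.8 and 30.1 M behind the CEI-marker libraries. QC-marker library 2 listed 4931 of the tested genes at 0, against 149 to 888 in the other 5 wild-type libraries. The rank correlation over the tested genes was 0.871 between QC-marker library 1 and CEI-marker library 1, above the 0.687 to 0.843 among QC-marker libraries and the 0.674 to 0.842 among CEI-marker libraries. Summed root cap markers were at 235, 1127 and 935 FPKM in QC-marker libraries, against 137, 26.6 and 2538 FPKM in CEI-marker libraries. The gene CEL5 alone gave 1955 of the 2538 FPKM in CEI-marker library 4. Summed epidermis and root hair markers were at 332, 1745 and 556 FPKM in QC-marker libraries, against 266, 3127 and 478 FPKM in CEI-marker libraries. In bulk samples, fewer cells of a type and less RNA per cell cannot be told apart.

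The reporters' own genes checked the labels. WOX5 was at 255, 262 and 163 FPKM in QC-marker cells, against 8.82, 27.3 and 0 FPKM in CEI-marker cells. All 3 QC-marker libraries lay above all 3 CEI-marker libraries, by 5.09 on average (SE 0.99) on the log2(FPKM + 1) scale, on which all differences are given as QC minus CEI. WOX5 was still detected in 2 CEI-marker libraries. CYCD6;1 was at 0.658, 0 and 2.07 FPKM in QC-marker cells, against 1.9, 22.7 and 7.55 FPKM in CEI-marker cells. CEI-marker library 1 was below QC-marker library 3, so the populations overlapped in the gene that names the CEI reporter (QC minus CEI -2.29, SE 1.00).

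Limma's moderated test on the 6 libraries called 1 gene at an adjusted p under 0.05, or 0.00549% of those tested. A further view needs no shared estimate of spread: 1277 genes (7.02%) were higher in every QC-marker library than in any CEI-marker library, and 625 (3.43%) were lower in every one. At an unadjusted p under 0.05 there were 761 genes (4.18%). That is fewer than would pass by chance, a fraction of 0.05 of all tested genes. The values named from here on are therefore mostly descriptions of 6 libraries. An exact permutation of 3 against 3 libraries cannot give a p under 0.1. That is also the chance that a gene without a difference separates completely, in either direction. Lack of overlap in a single gene is therefore a description and no test. A fit that also drew its estimate of spread from the 7 wox5-1 libraries called 102 genes (0.56%), of which 68 (0.374%) stood higher in QC-marker cells and 34 (0.187%) lower. The libraries of a group spread less in the mutant. For QC-marker cells the median SD on the log2 scale was 0.256 in wox5-1, against 1.01 in the wild type. The joint fit therefore understates the wild-type error, and with a weight per group it called 4 genes (0.022%).

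The called gene was AT1G23650, which rose in QC-marker cells (limma, adjusted p = 0.0004). Its annotation in RefSeq is an uncharacterized protein. It was at 287, 328 and 413 FPKM in QC-marker cells and listed at 0 in all 3 CEI-marker libraries. Its annotated exons span only 87 bases, and FPKM of so short a gene depends strongly on the length correction applied. With genes under 200 exon bases left out, 0 genes were called. Without QC-marker library 2 and CEI-marker library 4, the gene still passed, with 1 other, ATCG00260.

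**Figure D1:**
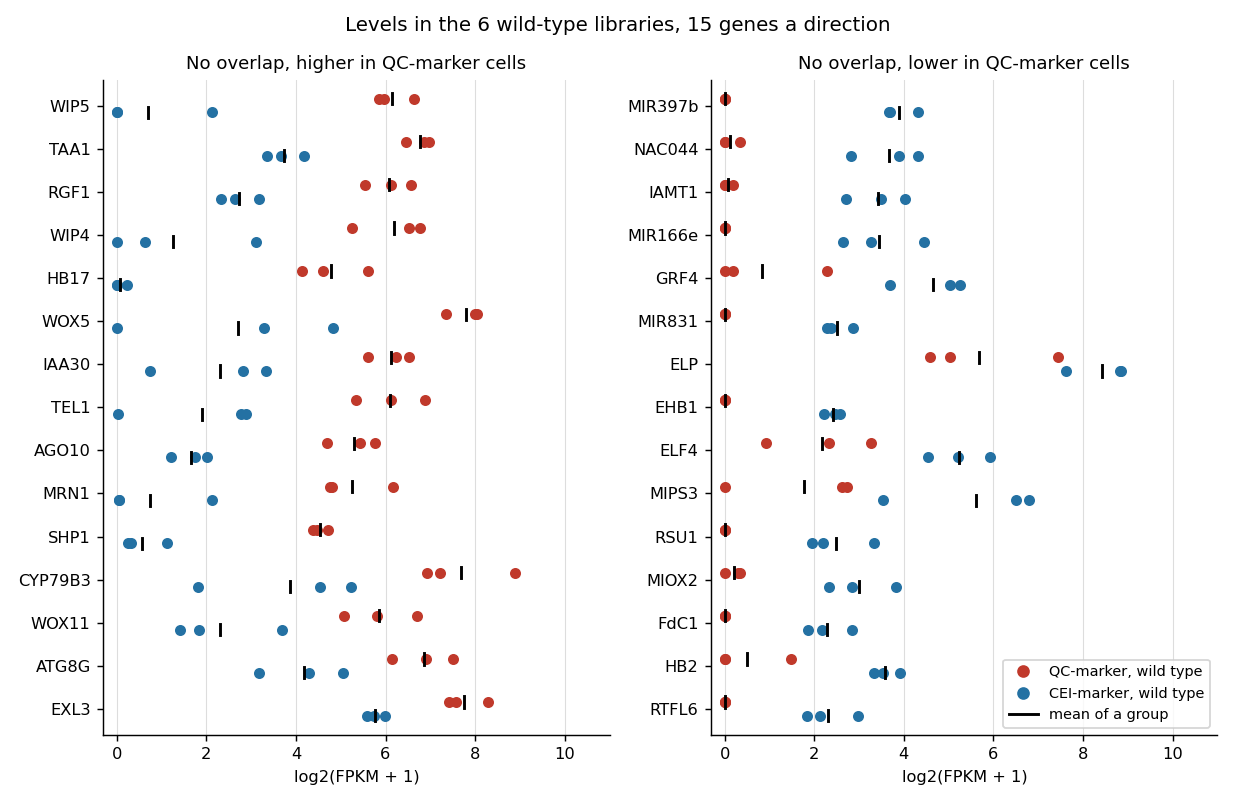
Levels of 30 genes with a symbol whose populations do not overlap, 15 higher (left) and 15 lower (right) in QC-marker cells, ordered by unadjusted p. Each point is 1 library on a log2(FPKM + 1) axis, bars are group means, and 7 of the 15 lower genes are listed at 0 in every QC-marker library. The filter fixed the lack of overlap of those 7.

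The genes of the QC and stem cell niche stood higher in QC-marker cells. Of the 16 listed, 14 were tested, all 14 had a positive difference, and 12 were higher in every QC-marker library, against the 7.02% of all tested genes. The list's median log2 difference was 3.19, beside -0.05 for all tested genes, and lay between 2.73 and 3.80 over the 19 alternative settings, with 3.22 when CEI-marker library 4 was left out. None of the 14 passed the test on 6 libraries, and 6 passed as higher in the fit on 13 libraries, where 0.374% of all tested genes did. With a weight per group WIP5 alone passed. WOX5, the gene of the QC reporter, is a member, and so are RGF1, RGF2 and RGF3, whose values are given below. TEL2, at 0 FPKM in every QC-marker library, and ERF115, at 0.275, 0 and 0 FPKM in QC-marker cells against 3.74, 0 and 3.41 FPKM in CEI-marker cells, were too low to be tested.

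WIP2, WIP4 and WIP5, zinc finger genes that act redundantly to start the embryonic root, were among the most different. WIP5 was at 61.3, 57.2 and 98.6 FPKM in QC-marker cells, against 0, 0 and 3.33 FPKM in CEI-marker cells (QC minus CEI 5.45, SE 0.87, limma adjusted p = 0.265 on 6 libraries and 0.00056 on 13). WIP4 was at 109, 36.8 and 91.6 FPKM in QC-marker cells, against 0.551, 0 and 7.68 FPKM in CEI-marker cells. WIP2 was at 53.1, 60.2 and 55.3 FPKM in QC-marker cells, against 2.84, 0.419 and 14.1 FPKM in CEI-marker cells. None of the 3 overlapped, and in each of them the highest CEI-marker value came from library 4, the one with the highest sum of root cap markers.

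The PLT family showed smaller differences. PLT1 was at 218, 96.7 and 229 FPKM in QC-marker cells, against 53.3, 42.4 and 43.8 FPKM in CEI-marker cells (QC minus CEI 1.85, SE 0.50). PLT3 was at 111, 128 and 177 FPKM in QC-marker cells, against 44.7, 55.2 and 68.4 FPKM in CEI-marker cells (1.28, SE 0.46). PLT2 and its relative BBM also did not overlap, with log2 differences of 1.66 (SE 0.67) and 2.47 (SE 0.81). All 4 were detected in every library of both populations. They did not pass the 6-library test, with limma adjusted p = 0.685 for PLT1.

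TEL1, an RNA-binding protein gene of the Mei2-like family, was at 39.4, 116 and 68.7 FPKM in QC-marker cells, against 5.83, 6.42 and 0.0189 FPKM in CEI-marker cells (QC minus CEI 4.21, SE 0.88). MYB56, a transcription factor that restrains QC division, was at 85.6, 29.4 and 61.6 FPKM in QC-marker cells, against 18.4, 14.1 and 0.0319 FPKM in CEI-marker cells (3.03, SE 1.04). Neither overlapped between the populations. AGL42, a MADS-box gene used as a QC marker, did overlap, at 16.4, 32.9 and 16.3 FPKM in QC-marker cells against 21.4, 17.1 and 5.83 FPKM in CEI-marker cells, and its difference of 0.63 (SE 0.71) turned to -0.21 without QC-marker library 2 and CEI-marker library 4.

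**Figure D2:**
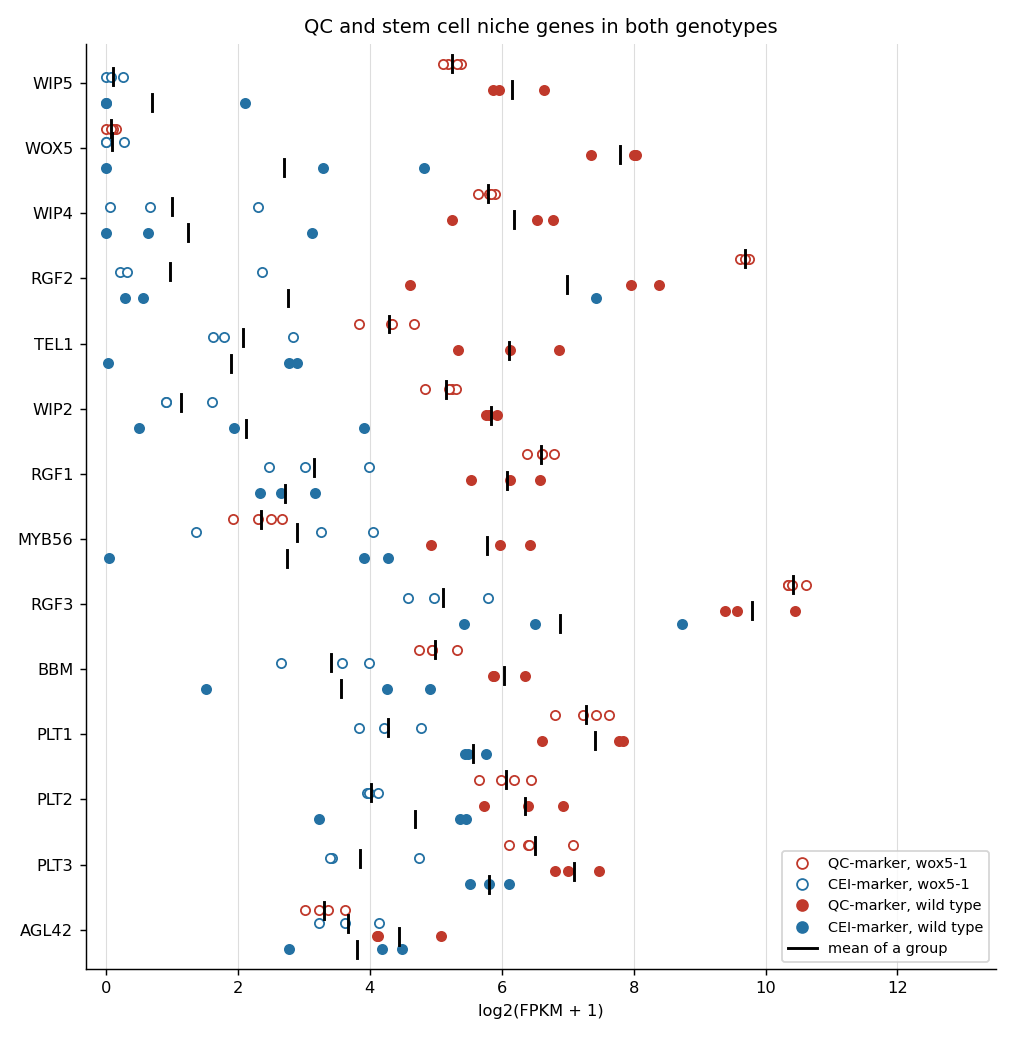
The 14 tested niche genes in both genotypes, ordered by their wild-type difference. Points are libraries on a log2(FPKM + 1) axis, open for wox5-1 and filled for the wild type, red for QC-marker and blue for CEI-marker cells, with group means as bars. WOX5 and MYB56 are high in wild-type QC-marker cells and not in those of wox5-1.

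The root meristem growth factors are short sulfated peptides that the receptors RGFR1 to RGFR5 bind and that keep PLT proteins abundant. RGF1 was at 94.2, 45.4 and 68.6 FPKM in QC-marker cells, against 5.26, 8.03 and 4.05 FPKM in CEI-marker cells (QC minus CEI 3.36, SE 0.61). RGF3 was at 669.6, 759 and 1395 FPKM in QC-marker cells, against 90.0, 41.9 and 426 FPKM in CEI-marker cells (2.91, SE 0.78). RGF2 was at 23.3, 248 and 335 FPKM in QC-marker cells, against 0.484, 0.222 and 172 FPKM in CEI-marker cells, where library 4 stood above QC-marker library 1. RGF1 and RGF3 thus did not overlap, while RGF2 did. The receptor side differed less: the 5 receptor genes all overlapped, with differences from -0.66 for RGFR1 to 1.09 for RGFR2. TPST, the enzyme that sulfates the peptides, was at 40.2, 11 and 51.2 FPKM in QC-marker cells, against 9.33, 13.9 and 11.7 FPKM in CEI-marker cells. RITF1, a transcription factor downstream of RGF1, had a difference of -2.24 (SE 1.15), with QC-marker library 2 listed at 0.

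Of the 15 WOX homeobox genes, 4 were tested. WOX11 was at 54.9, 32.5 and 103 FPKM in QC-marker cells, against 2.57, 1.65 and 12 FPKM in CEI-marker cells (QC minus CEI 3.54, SE 0.80). WOX12 was at 33.5, 31.7 and 38.6 FPKM in QC-marker cells, against 7.78, 4.01 and 25.7 FPKM in CEI-marker cells (1.75, SE 0.72). These relatives, known for starting adventitious roots, did not overlap between the populations. WOX13, the most widely expressed of the family, did (-0.44). WOX7, the closest paralog of WOX5, went the other way. It was at 0.982, 0 and 0 FPKM in QC-marker cells, against 23.4, 58.5 and 0.448 FPKM in CEI-marker cells, and missed the filter because only 2 libraries reached 1 FPKM. Fragments of WOX5 and WOX7 may have been assigned to the wrong paralog, which was not tested.

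Auxin synthesis and transport genes were shifted towards QC-marker cells. Of 18 tested, 16 had a positive difference, against 47.7% of all tested genes, and 6 were higher in every QC-marker library, against 7.02%. The median was 1.101, beside -0.05 for all tested genes. TAA1, which makes the auxin precursor indole-3-pyruvate, was at 116, 125 and 86.6 FPKM in QC-marker cells, against 17.2, 9.18 and 11.7 FPKM in CEI-marker cells (QC minus CEI 3.03, SE 0.50). YUC3, which turns that precursor into auxin, was at 268, 429 and 363 FPKM in QC-marker cells, against 77.7, 60.6 and 162 FPKM in CEI-marker cells (1.91, SE 0.52). Both steps of the main synthesis route thus had a gene without overlap, and both genes passed in the 13-library fit (limma adjusted p = 0.0056 and 0.0392). Neither passed with a weight per group (limma adjusted p = 0.296 and 0.942). The related genes YUC5, YUC7, YUC8 and YUC9 overlapped.

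Among the carriers, PIN3 and LAX2 differed most. PIN3, an efflux carrier of the columella, was at 38.4, 85.5 and 97.1 FPKM in QC-marker cells, against 9.01, 5.56 and 24 FPKM in CEI-marker cells (QC minus CEI 2.56, SE 0.66). LAX2, an influx carrier, was at 65.2, 122 and 101 FPKM in QC-marker cells, against 27, 31.9 and 7.63 FPKM in CEI-marker cells (2.23, SE 0.61). PIN4, an efflux carrier of the niche, was at 205, 114 and 261 FPKM in QC-marker cells, against 58.6, 68.2 and 84.1 FPKM in CEI-marker cells. None of these 3 overlapped, while PIN2, PIN7, AUX1, LAX3 and the ABCB genes did. None of the list passed the 6-library test.

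The auxin response list held 15 tested genes, of which 12 had a positive difference and 6 were higher in every QC-marker library (median 0.71), beside the same 47.7% and 7.02% of all tested genes. The most different were IAA20 and IAA30, Aux/IAA proteins that lack the degradation motif of the family. IAA30 was at 91.5, 47.7 and 74.1 FPKM in QC-marker cells, against 9.09, 0.672 and 6 FPKM in CEI-marker cells (QC minus CEI 3.83, SE 0.78). IAA20 was at 80.6, 181 and 122 FPKM in QC-marker cells, against 1.65, 0.292 and 44.6 FPKM in CEI-marker cells (4.50, SE 1.099), and passed the test without CEI-marker library 4 (limma adjusted p = 0.0266). ARF5, the MONOPTEROS activator of auxin-induced genes, was at 47.4, 375 and 105 FPKM in QC-marker cells, against 14.7, 21.8 and 48.1 FPKM in CEI-marker cells, with a narrow overlap.

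Root cap and starch genes varied strongly between libraries of 1 population. Of 12 columella and root cap markers, 10 had a positive difference, against 47.7% of all tested genes (median 1.40), but PIN3 was the only one without overlap. FEZ, which drives root cap stem cell division, was at 9.5, 12.6 and 51 FPKM in QC-marker cells, against 0.737, 1.34 and 12.9 FPKM in CEI-marker cells. SMB, which starts root cap maturation, was at 11.4, 46.3 and 85.6 FPKM in QC-marker cells, against 3.45, 0.0622 and 63.8 FPKM in CEI-marker cells. In both genes CEI-marker library 4 stood within the QC-marker range. CEL5, a cellulase of the detaching root cap, was at 59.6, 328 and 376 FPKM in QC-marker cells, against 47.4, 8.63 and 1955 FPKM in CEI-marker cells. Without CEI-marker library 4 the list's median was 2.99. The columella peptide gene CLE40 ran the other way, at 0, 0 and 2.32 FPKM in QC-marker cells against 5.05, 3.08 and 1.88 FPKM in CEI-marker cells.

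Columella cells store starch, and 11 of 13 tested starch genes had a positive difference, with 4 higher in every QC-marker library (median 1.05), beside 47.7% and 7.02% of all tested genes. GBSS1, the granule-bound synthase that makes amylose, was at 17.56, 56.8 and 59.3 FPKM in QC-marker cells, against 0.497, 0.853 and 10.3 FPKM in CEI-marker cells (QC minus CEI 3.67, SE 0.98). The branching enzyme genes SBE2.1 and SBE2.2 did not overlap (1.35, SE 0.58, and 1.74, SE 0.77). SEX1, which phosphorylates starch before its breakdown, overlapped through CEI-marker library 4 at 49.4 FPKM, against 5 and 7.67 FPKM in the other 2 CEI-marker libraries. The summed list was at 181, 541 and 341 FPKM in QC-marker cells, against 86.8, 92.2 and 289 FPKM in CEI-marker cells, in the same library order as the root cap markers within the QC-marker group. The part of root cap transcripts in these differences was not tested.

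**Figure D3:**
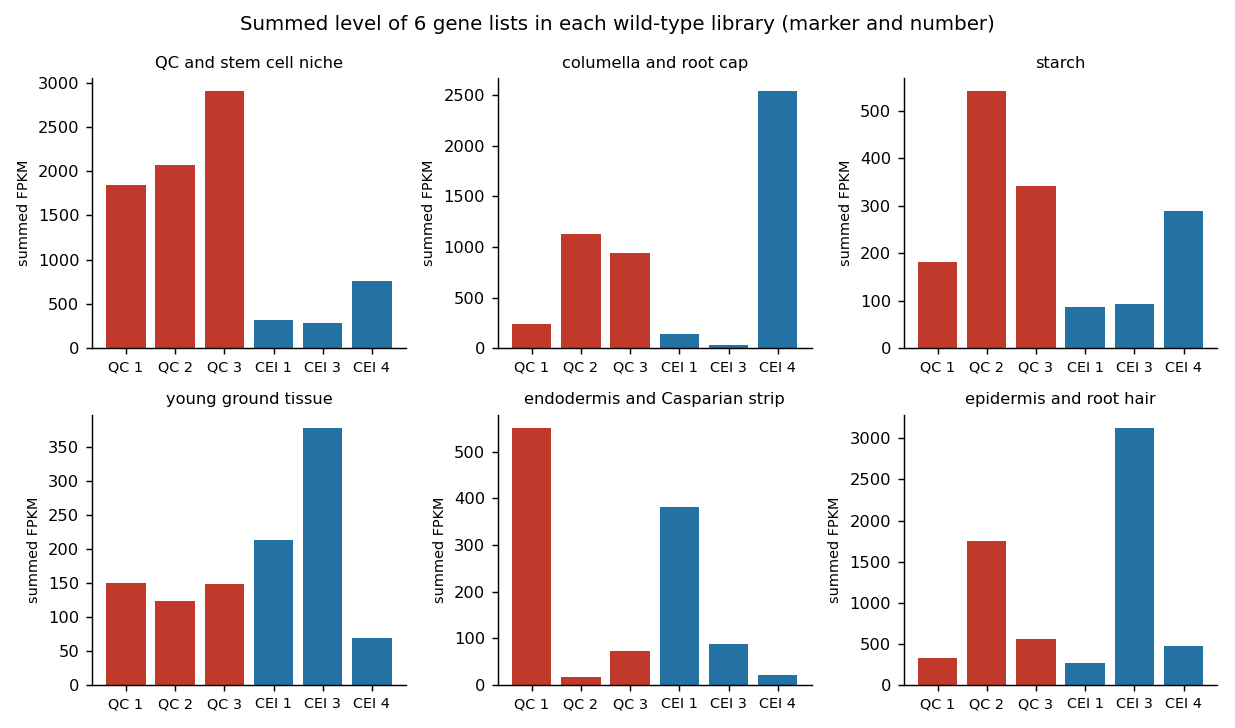
Summed FPKM of 6 gene lists in each wild-type library, QC-marker libraries in red and CEI-marker libraries in blue. The niche sum separates the populations (1844 to 2901 against 286 to 759 FPKM), while the root cap, endodermis and epidermis sums are led by single libraries of either population. RGF3 alone gave 669.6 to 1395 FPKM of the niche sum in QC-marker and 41.9 to 426 FPKM in CEI-marker libraries.

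Other genes with a symbol that were higher in every QC-marker library came from several families. HB17, a homeodomain-leucine zipper gene, was at 23.1, 47.8 and 16.5 FPKM in QC-marker cells, against 0, 0 and 0.177 FPKM in CEI-marker cells (QC minus CEI 4.70, SE 0.90), and passed in the 13-library fit with and without group weights (limma adjusted p = 0.0411 and 0.00056). AGO10, an Argonaute protein gene of stem cell maintenance in the shoot, was at 42, 53.2 and 24.9 FPKM in QC-marker cells, against 3.06, 2.38 and 1.32 FPKM in CEI-marker cells. SHP1, a MADS-box gene best known from the fruit, was at 25.4, 19.9 and 21.1 FPKM in QC-marker cells, against 0.238, 0.196 and 1.19 FPKM in CEI-marker cells. SHP1 had the tightest QC-marker values of the 3, and in all 3 the lowest QC-marker library stood far above the highest CEI-marker library.

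Metabolic genes were among them too. CYP79B3, which turns tryptophan into indole-3-acetaldoxime, was at 148, 476 and 120.2 FPKM in QC-marker cells, against 22.1, 36.5 and 2.51 FPKM in CEI-marker cells. MRN1, the marneral synthase gene, was at 27, 70.9 and 26.1 FPKM in QC-marker cells, against 3.34, 0.0415 and 0.0421 FPKM in CEI-marker cells. QC-marker library 2 was the highest in both. The autophagy gene ATG8G and the EXORDIUM-like gene EXL3 had differences of 2.68 (SE 0.61) and 1.98 (SE 0.46), and EXL3 was at 46.9 to 62.7 FPKM even in CEI-marker cells. LAS, a GRAS-family regulator of axillary meristems, and APL4, a gene for a subunit of ADP-glucose pyrophosphorylase in starch synthesis, had differences of 3.50 and 2.87. Both passed in the 13-library fit, as did ATG8G, but none of them passed with a weight per group. CYP79B3, MRN1 and EXL3 did not pass on 13 libraries (limma adjusted p = 0.0503, 0.0683 and 0.0512).

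Genes lower in QC-marker cells were mostly low or listed at 0 there. Of the 625 below every CEI-marker library, 415 were listed at 0 in at least 1 QC-marker library and 53 in all 3. Among all 9522 tested genes with a negative difference, 4231 were listed at 0 in at least 1 QC-marker library. QC-marker library 2 listed 4931 tested genes at 0, against 234 and 888 in QC-marker libraries 1 and 3. Only 3 of the 1277 above were listed at 0 in all CEI-marker libraries. By the rough estimate of depth the QC-marker libraries were also the shallower ones. Yet QC-marker library 1, with 234 tested genes at 0, had fewer than CEI-marker libraries 3 and 4, with 310 and 599. The parts of depth and of QC-marker library 2 in these counts were not tested. Of the 15 lower genes named by smallest unadjusted p, 7 were listed at 0 in every QC-marker library: MIR397b, MIR166e, MIR831, EHB1, RSU1, FdC1 and RTFL6. A gene at 0 in every library of 1 population passes the filter only by reaching 1 FPKM in every library of the other. The filter thus fixed the lack of overlap of these 7, of the 53 and of the 3, AT1G23650 among them. In the CEI-marker libraries MIR397b had 18.9, 11.6 and 11.8 FPKM, and MIR166e had 8.63, 20.7 and 5.28 FPKM. The microRNA loci are short genes, with the same limit on their FPKM as AT1G23650.

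The rest of these lower genes were above 0 in at least 1 QC-marker library, but NAC044, IAMT1 and MIOX2 stayed under 1 FPKM there. ELF4, a clock gene, was at 8.59, 0.891 and 4.02 FPKM in QC-marker cells, against 22.3, 35.7 and 59.9 FPKM in CEI-marker cells (QC minus CEI -3.05, SE 0.84). NAC044, a regulator of cell cycle arrest after DNA damage, was at 0.266, 0 and 0 FPKM in QC-marker cells, against 18.9, 13.9 and 6.08 FPKM in CEI-marker cells (-3.56, SE 0.84). IAMT1, which methylates auxin, was at 0.143, 0 and 0 FPKM in QC-marker cells, against 5.59, 10.2 and 15.3 FPKM in CEI-marker cells (-3.35, SE 0.80). These 3 passed in the 13-library fit, with limma adjusted p between 0.0248 and 0.0356. With a weight per group none of them passed (limma adjusted p between 0.643 and 0.942). MIPS3, an inositol phosphate synthase gene, was at 5.1, 0 and 5.61 FPKM in QC-marker cells, against 90.3, 111 and 10.6 FPKM in CEI-marker cells (-3.84, SE 1.08). ELP, MIOX2 and the hemoglobin gene HB2 had differences of -2.75 (SE 0.73), -2.79 (SE 0.78) and -3.09 (SE 0.88).

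The regulators in the study's title did not separate the populations. PAN, a bZIP transcription factor, was at 24.9, 0 and 31.2 FPKM in QC-marker cells, against 17.3, 11.9 and 0.644 FPKM in CEI-marker cells (QC minus CEI 0.37, SE 1.43). AN3, the coactivator GRF-INTERACTING FACTOR 1, was at 105, 107 and 76.3 FPKM in QC-marker cells, against 243, 306 and 21.2 FPKM in CEI-marker cells (-0.30, SE 0.85). Both overlapped, and in both the lowest CEI-marker value came from library 4. The sign of PAN's difference turned in 4 of 19 alternative settings and that of AN3 in 2. AN3 binds the GRF transcription factors, and the list of both families, which holds AN3 itself, had 9 tested genes and a median of -1.12. GRF4 was at 3.89, 0.144 and 0 FPKM in QC-marker cells, against 31.6, 37 and 11.9 FPKM in CEI-marker cells (-3.83, SE 1.00). It passed on 13 libraries (limma adjusted p = 0.0467) and not with a weight per group (limma adjusted p = 0.886). GRF3 overlapped (-2.59, SE 1.20), and GRF2 lay below in every QC-marker library (-1.61, SE 0.97). GIF3, another coactivator, lay above in each, at 5.15, 24.2 and 4.72 FPKM in QC-marker cells against 2.51, 1.99 and 0 FPKM in CEI-marker cells.

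The genes listed for young ground tissue gave no clear separation. SHR is in the list as a regulator of the division that founds the ground tissue. Whether its RNA marks CEI cells was not tested. Of 10 listed, 9 were tested, 3 had a positive difference, and only SHR lay below in every QC-marker library, against the 3.43% of all tested genes (median -0.19). SHR was at 3.2, 0 and 2.37 FPKM in QC-marker cells, against 5.09, 7.85 and 4.31 FPKM in CEI-marker cells. SCR, which is made in the QC as well as in the ground tissue, was at 57.3, 13.9 and 26.5 FPKM in QC-marker cells, against 35.1, 107 and 10 FPKM in CEI-marker cells (QC minus CEI -0.28, SE 0.83). MGP, a zinc finger target of SHR and SCR, was at 6.51, 29 and 11 FPKM in QC-marker cells, against 74.2, 78.1 and 8.13 FPKM in CEI-marker cells. CEI-marker library 4 was below every QC-marker library in SCR and below 2 of 3 in MGP. The summed list was at 150.4, 123 and 148 FPKM in QC-marker cells, against 213, 378 and 69.3 FPKM in CEI-marker cells, so CEI-marker library 4 had the lowest sum of the 6.

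Cell cycle lists had negative medians. The medians were -0.15 for 23 S phase genes, -0.41 for 26 G2 and M phase genes, -0.73 for 8 D-type cyclins and -0.67 for 9 CDK inhibitor genes, and over the 4 lists 0 genes lay above and 3 below in every QC-marker library, where 7.02% and 3.43% of all tested genes did. CYCB1;1, a mitotic cyclin, was at 12.6, 0 and 7.77 FPKM in QC-marker cells, against 41.6, 40.8 and 3.29 FPKM in CEI-marker cells. PCNA1, the replication clamp, was at 35.3, 0 and 44.7 FPKM in QC-marker cells, against 110, 88.7 and 12.2 FPKM in CEI-marker cells. In both genes QC-marker library 2 was listed at 0 and CEI-marker library 4 was below at least 1 QC-marker library.

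The remaining lists are in the plot of differences by list. Type-A response regulators, which cytokinin induces and which dampen its signal, had a median of 0.69, and ARR8 and ARR9 were higher in every QC-marker library (1.45, SE 0.65, and 1.099, SE 0.68). WER, an epidermal MYB gene, was at 40.3, 56.7 and 34.2 FPKM in QC-marker cells, against 15.6, 2.36 and 16.3 FPKM in CEI-marker cells, although its list had a median of -0.76. ATHB8, a vascular homeobox gene, had the largest difference of the stele list (3.18, SE 1.13) with overlap. In the wounding and jasmonate list (median -0.20) the jasmonate synthesis gene AOC4 was higher (1.80, SE 0.53) and the repressor gene JAZ8 lower (-2.27, SE 0.93) in every QC-marker library. Medians were -0.20 for endodermis, -0.13 for housekeeping, 0.08 for heat shock, -0.50 for cytosolic ribosomal proteins and -1.42 for the 2 cortex genes. They were -1.04 for chloroplast-encoded and -0.39 for mitochondrion-encoded genes. Genes of green tissue had a median of -0.59, with summed levels of at most 8.12 FPKM in QC-marker and 24 FPKM in CEI-marker cells.

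**Figure D4:**
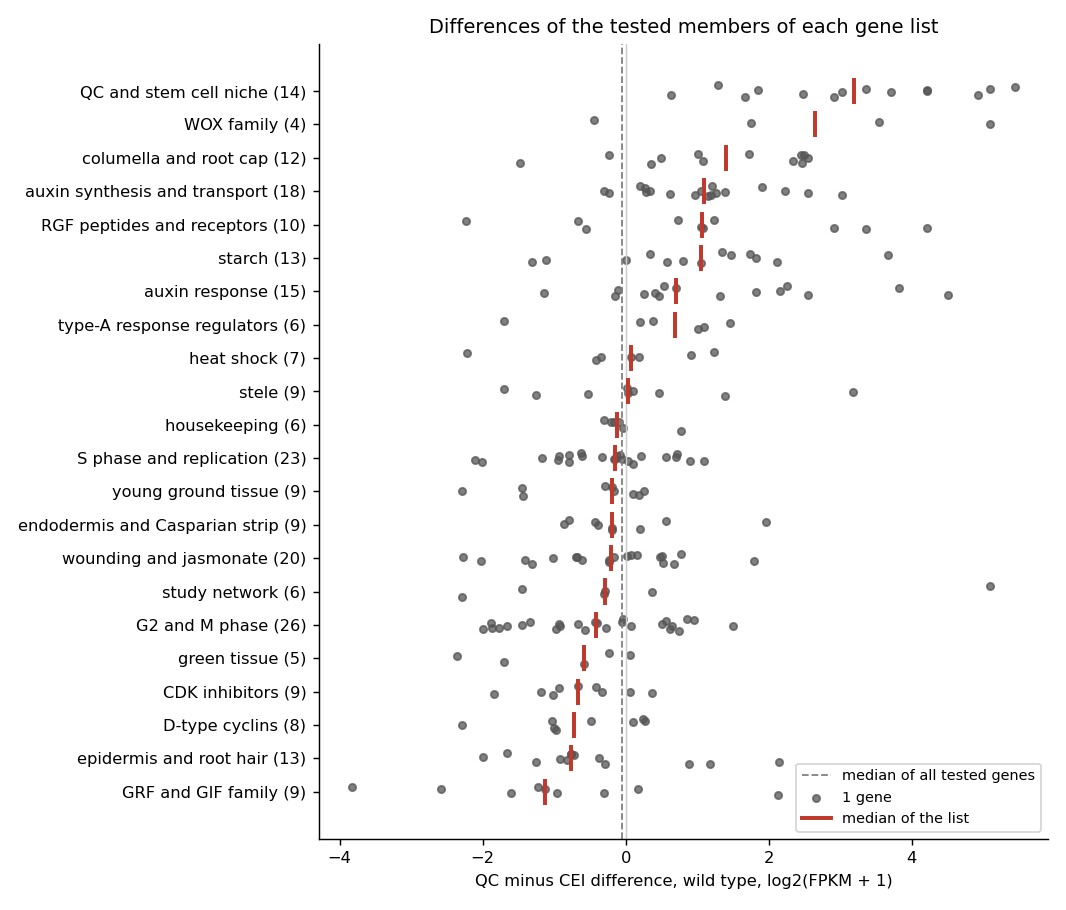
QC minus CEI differences of the tested members of 22 gene lists with at least 4 tested genes in the wild type on the log2(FPKM + 1) scale, with the number tested in brackets. Each point is 1 gene and each red bar a list's median. The niche list has the highest median, 3.19, and the GRF and GIF list the lowest, -1.12, while the dashed line marks the median of all tested genes, -0.05.

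The same populations of wox5-1 gave values from libraries that the wild-type comparison did not use. There limma called 4843 of the 18203 genes (26.6%), with 3851 (21.2%) higher in QC-marker cells and 992 (5.45%) lower. With median-of-ratios scaling it called 1382 higher and 1580 lower, and with quantile normalization 1665 higher and 1439 lower. The count was 2541, 2692 and 2403 without QC-marker library 1, 2 or 3, and 8024 without CEI-marker library 1, where green tissue markers summed to 11832 FPKM, against 26.5 and 42.5 FPKM in the other 2. Of the genes higher in every wild-type QC-marker library, 1100 were also higher in wox5-1 QC-marker cells on average: 86.1% of the 1277 had the same sign and 544, or 42.6%, were called higher. Among all tested genes with a positive difference in the wild type, 77.1% had the same sign and 27.6% were called higher. Of the 625 genes lower in every wild-type QC-marker library, 52.5% had the same sign and 60, or 9.6%, were called lower. Among all tested genes with a negative difference in the wild type, 35.8% had the same sign and 7.005% were called lower. The wox5-1 differences of all tested genes had a median of 0.40, so the shares of the 2 directions cannot be set against each other.

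The niche genes showed this for single members. In wox5-1, 11 of the 14 tested niche genes were called higher in QC-marker cells, with a median difference of 2.82. Of all tested genes 21.2% were called higher there, with a median of 0.40. WIP5 was at 35.2, 40.9, 33.7 and 38.9 FPKM in wox5-1 QC-marker cells, against 0, 0.0499 and 0.201 FPKM in wox5-1 CEI-marker cells. RGF1 was at 96.7, 109.9, 82.1 and 96.6 FPKM in wox5-1 QC-marker cells, against 7.14, 14.9 and 4.54 FPKM in wox5-1 CEI-marker cells. AT1G23650, the gene called in the wild type, was at 73, 19, 26 and 52.3 FPKM in wox5-1 QC-marker cells and listed at 0 in those CEI-marker cells, and rose there too (limma adjusted p = 0.000276). The 3 niche genes not called were WOX5, MYB56 and AGL42. WOX5 is the gene mutated in wox5-1 and was at most 0.207 FPKM in any wox5-1 library, so it could not be called there. MYB56 was at 5.33, 2.79, 3.93 and 4.69 FPKM in wox5-1 QC-marker cells, against 15.5, 8.63 and 1.57 FPKM in wox5-1 CEI-marker cells. Among the 15 named lower genes 12 had the same sign in wox5-1 and 1 was called, MIPS3 (-2.69, SE 0.52, limma adjusted p = 0.0081). The 15 came from the 625 genes lower in every wild-type QC-marker library, where the shares were 52.5% and 9.6%. Among all tested genes with a negative wild-type difference they were 35.8% and 7.005%.

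**Figure D5:**
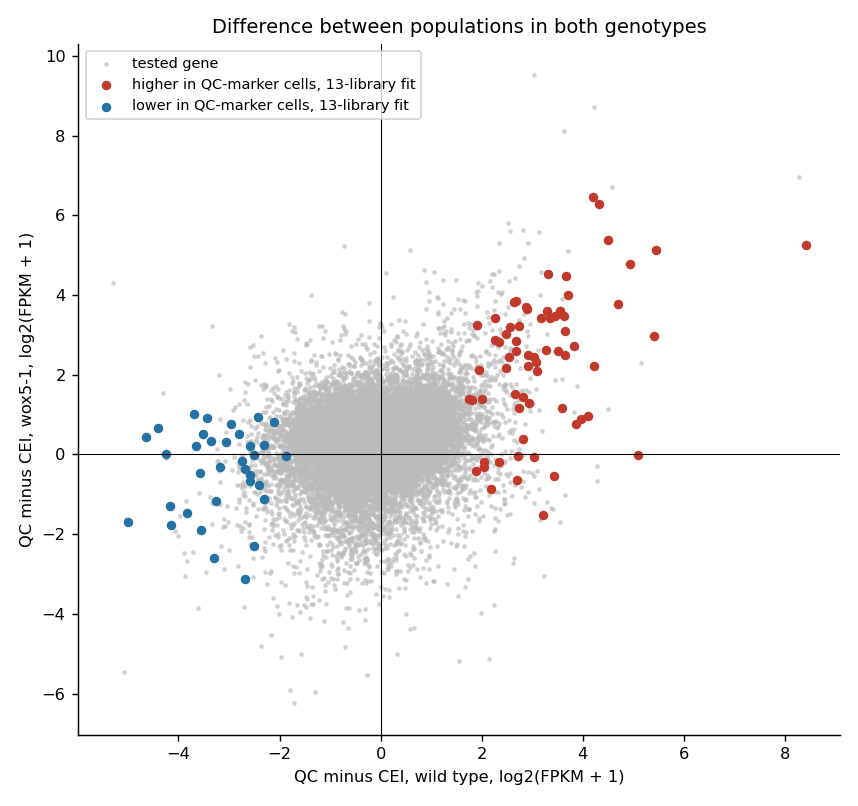
QC minus CEI difference of each tested gene in wox5-1 (vertical axis) against the wild type (horizontal axis), both on the log2(FPKM + 1) scale. Coloured points are the 102 genes called in the wild type by the 13-library fit: 57 of the 68 higher genes and 19 of the 34 lower genes have the same sign in wox5-1, where 77.1% of all genes with a positive and 35.8% of all genes with a negative wild-type difference do. That fit drew its spread partly from the wox5-1 libraries, so the coloured genes were not chosen independently of them.

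Whether the difference between populations itself changed with genotype was tested with an interaction contrast over the 13 libraries, which called 4 genes (0.022%). WAG2, a kinase gene of PIN regulation, was at 11.8, 12.9, 14.5 and 13.7 FPKM in wox5-1 QC-marker cells, against 63.9, 83.4 and 65.0 FPKM in wox5-1 CEI-marker cells. In the wild type it was at 76.6, 74.8 and 44.7 FPKM in QC-marker cells, against 26.3, 25.5 and 48.4 FPKM in CEI-marker cells. Its interaction was -3.30 (SE 0.48, limma adjusted p = 0.036). The others were AT3G17100 (5.07), AT3G44440 (-4.31) and ATMG00360 (4.25), and 0 genes were called with a weight per group or when any wox5-1 library other than QC-marker library 3 was left out. None of the niche genes passed, with limma adjusted p = 0.181 for WOX5 and 0.4 for MYB56. Yet WOX5, the mutated gene, was at 163 to 262 FPKM in wild-type QC-marker cells and at most 0.207 FPKM in wox5-1. Not passing therefore does not show that a difference was the same in both genotypes.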

How the data were processed

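The authors deposited 1 table of FPKM values for 33560 genes. Amplified SMARTer cDNA from ultra-low input was sheared by ultrasound before library preparation, per the labels' protocols, which name no molecular identifiers. The submitters' processing notes name Cufflinks and give no version of it. Aligner, genome build, annotation and strand setting: not given in the sources used here. Fragments of overlapping genes or close paralogs cannot be told apart. FPKM is no count, so no count model was used. Symbols (for 10651 identifiers), descriptions and exon lengths came from RefSeq (TAIR10.1), which held 32826 identifiers.

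Libraries were grouped by their titles, which call them biological replicates; whether they came from separate plants or sorts is not given, so p-values measure only the spread between these libraries. The numbers in the CEI-marker columns do not match the titles' replicate numbers and serve as names. Depth was estimated from the step of FPKM values in genes with 1 transcript and at least 1000 exon bases, chosen to put most values within 0.1 of a whole fragment. It did so for 35.0% to 45.3% in the wild-type libraries, where chance gives 20% for a fixed step, so the estimate is rough and entered no test.

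Limma (3.58.1, R 4.3.3) with a mean-variance trend was run on log2(FPKM + 1), 2-sided, on the 6 wild-type libraries (4 residual degrees of freedom, 7.05 added by the shared estimate of spread), with Benjamini-Hochberg adjustment over the tested genes and calls at 0.05. The log2(FPKM + 1) scale understates changes of low genes. The wox5-1 comparison and the interaction used the same genes. The script was tested on simulated data. Levels of different genes are compared only as FPKM, which is per length.

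The comparison, its 23 gene lists (280 loci) and the naming rule were chosen with earlier results of these data known. The rule takes WOX5, CYCD6;1, PAN, AN3, SHR and SCR, called genes, the 15 genes a direction with a symbol, no overlap and the smallest p, and up to 4 further members of a list. Other members of the niche, RGF, WOX, auxin, root cap and GRF lists, and LAS and APL4, were named after their values were seen. Alternatives were other pseudocounts, filters, scalings, limma settings, fits on 13 libraries, a replicate block and leaving out each library. A fit without QC-marker library 2 and CEI-marker library 4 and a minimum exon length were added after the data were seen. The values of 1 list member are not reported here.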

Additional observations from a re-analysis of the deposited data

Results flagged for a closer look

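The difference between populations itself differed between the genotypes for 4 genes by limma's interaction test. WAG2 had an interaction of -3.30 (wox5-1 minus wild type, log2), with a QC minus CEI difference of -2.33 in wox5-1 and 0.97 in the wild type. AT3G17100 had an interaction of 5.07, with 99.1, 87.7, 36.0 and 102 FPKM in wox5-1 QC-marker cells against 0.912, 0 and 0.952 FPKM in the QC-marker cells of the wild type. AT3G44440 had an interaction of -4.31, and was at 0 FPKM in all wox5-1 QC-marker libraries against 3.79, 4.33 and 3.25 FPKM in those of the wild type. ATMG00360, a mitochondrial gene, had an interaction of 4.25. It was listed at 0 in every library but the wild-type CEI-marker ones, at 39.6, 12 and 12.2 FPKM, so 3 groups without spread entered its test. It passed the filter through those CEI-marker libraries alone. None of the 4 was called without wox5-1 CEI-marker library 1, 2 or 4, or without wox5-1 QC-marker library 1, 2 or 4.

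A library stood apart from the other 3 in wox5-1 QC-marker cells for 3 of the 82 genes examined, where chance flags about 1 in 20 groups. These were MIR397b in library 1 (10.4 FPKM, against 0 in the others), SMB in library 4 (55.3 FPKM, against 86.8 to 87.5) and RBCS1A in library 4 (0.417 FPKM, against 0 to 0.0389).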

How the results depend on the processing

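The count of genes called in the wild type was 1 under both other pseudocounts, both other filters, both other scalings and both other limma settings. It was 102 on 13 libraries, 4 with a weight per group, 2 without QC-marker library 2 and CEI-marker library 4, 0 with a minimum exon length of 200 bases, and 1 to 4 with each library left out. With a replicate block on the column numbers it was 0. The column numbers shared by both populations are 1 and 3 only, and nothing in the labels pairs them. AT1G23650 passed in all of these fits but the block (adjusted p = 0.0537) and the exon minimum. The interaction count of 4 was 7 with a pseudocount of 5, 15 without a filter, 0 with a filter at 5 FPKM, 0 with median-of-ratios scaling, 11 with quantile normalization, 0 with a weight per group and 0 to 50 with each library left out. In wox5-1 the count of 4843 was 2962 with median-of-ratios scaling (1382 higher, 1580 lower), 3104 with quantile normalization (1665 higher, 1439 lower) and 2403 to 8024 with each library left out, 8024 without CEI-marker library 1. The cause of these changes was not tested.

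Differences turned in sign for AGL42 (-0.21 with the replicate block and without QC-marker library 2 and CEI-marker library 4), AN3 (0.22 and 0.38 without CEI-marker library 1 or 3, in a range of -1.51 to 0.38 with each library left out), PAN (-0.33 with a pseudocount of 0.1, and -0.71, -0.36 and -0.52 without CEI-marker library 4, QC-marker library 1 or 3, in a range of -0.71 to 1.99) and SCR (0.53 without CEI-marker library 3, 0.19 without QC-marker library 2, in a range of -1.12 to 0.53). The median of all tested genes, -0.05, was -0.22 with median-of-ratios scaling. Of 490 recomputed list medians, 32 moved by more than the spread between libraries.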

Other observations

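A stretch of neighbouring loci stood out after the values were seen. In the wild type AT3G60647 had 128, 115 and 174 FPKM in QC-marker cells, against 1.92, 7.04 and 13.2 FPKM in CEI-marker cells, and AT3G60650 was at 178, 151 and 201 FPKM in QC-marker cells, against 3.65, 5.72 and 27.5 FPKM in CEI-marker cells. Both have locus numbers next to that of ATG8G (AT3G60640), which was also higher in every QC-marker library. Both passed limma's test without CEI-marker library 4 (adjusted p = 0.0471 and 0.0116). In wox5-1 their differences were 6.29 (SE 0.38) and 6.46 (SE 0.39). Whether fragments of one locus were counted for its neighbours was not tested.

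AT1G59740, a transporter gene, had a wild-type difference of 5.40, with 68.1, 611 and 28.0 FPKM in QC-marker cells against 1.18, 0.967 and 2.78 FPKM in CEI-marker cells. AT1G75580, an auxin-responsive SAUR gene, was at 90.3, 29.3 and 109 FPKM in QC-marker cells, against 4.89, 4.48 and 3.82 FPKM in CEI-marker cells. AT1G12130, a flavin monooxygenase gene, was at 6.28, 26.2 and 11.9 FPKM in QC-marker cells, against 0.635, 0 and 0 FPKM in CEI-marker cells. Another SAUR gene, AT4G34760, ran the other way (-3.55). These genes have no symbol in RefSeq and were named after their values were seen.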
